A study of Homo sapiens with 9 samples.

Results

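FGFR3, NSD2, MAF, ITGB7, CCR1 and the D cyclins CCND1, CCND2 and CCND3 are genes by which myelomas are sorted into molecular classes. These 8 genes of the 38478 in the deposited table were taken by name, NSD2 under its older symbol WHSC1, and 7 of the 8 had enough reads to be tested. Poly(A) RNA of OPM-1 (a long-established myeloma cell line of human origin) had been sequenced in strand-specific libraries. In the gFBXW7_gKMT2D group the cells carried RNAs targeting FBXW7 and KMT2D, in gFBXW7 an RNA targeting FBXW7, and in gLuc, the control, an RNA targeting luciferase, which human cells lack. Expression of these RNAs was stable, the line's genotype is given as WT in all groups, and each group had 3 libraries described as independent biological replicates. The labels do not give the method of targeting, nor whether the cells were clones or pools.

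Many myelomas carry a translocation that places a gene beside the enhancers of the immunoglobulin heavy-chain locus. One such rearrangement joins 4p16.3 and affects 2 neighbouring genes, FGFR3, a receptor tyrosine kinase, and NSD2, which dimethylates lysine 36 of histone H3; OPM-1 is known as a line of that class. Others act on MAF, a basic leucine zipper transcription factor, or on CCND1, the cyclin D1 gene. ITGB7, the beta-7 integrin chain that pairs with alpha-4 or alpha-E, and CCR1, a receptor of CCL3 and CCL5, are described targets of MAF, as is CCND2. D cyclins bind CDK4 and CDK6 and start the phosphorylation of the retinoblastoma protein, and myelomas of nearly every class express a D cyclin.

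In GENCODE v29 coordinates on GRCh38, FGFR3 lies at chr4:1793293-1808872 and NSD2 at chr4:1871424-1982207, both on the plus strand. MAF lies at chr16:79585843-79600714, ITGB7 at chr12:53191318-53207307, CCR1 at chr3:46201709-46208396 and CCND3 at chr6:41934933-42050357, all on the minus strand. CCND1 lies at chr11:69641087-69654474 and CCND2 at chr12:4273772-4305350, both on the plus strand. RefSeq promoter entries (GRCh38.p14) were found for 6 of the 8 genes, all but CCND1 and CCND2. The 250 bases before the transcription start of FGFR3 (chr4:1793043-1793292, plus strand) and of NSD2 (chr4:1871143-1871392, plus strand) are shown because the levels of this pair moved together across libraries. Many other genes moved with FGFR3 too, and NSD2 ranked 145 among genes by likeness to it over the 9 libraries. Capitals mark GC boxes, GGGCGG on either strand, some of which overlap.

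FGFR3: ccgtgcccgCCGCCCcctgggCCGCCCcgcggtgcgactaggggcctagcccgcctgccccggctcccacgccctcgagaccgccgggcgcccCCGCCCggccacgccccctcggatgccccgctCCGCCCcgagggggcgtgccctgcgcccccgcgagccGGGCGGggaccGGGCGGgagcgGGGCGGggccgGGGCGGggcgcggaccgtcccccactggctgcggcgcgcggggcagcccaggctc
NSD2: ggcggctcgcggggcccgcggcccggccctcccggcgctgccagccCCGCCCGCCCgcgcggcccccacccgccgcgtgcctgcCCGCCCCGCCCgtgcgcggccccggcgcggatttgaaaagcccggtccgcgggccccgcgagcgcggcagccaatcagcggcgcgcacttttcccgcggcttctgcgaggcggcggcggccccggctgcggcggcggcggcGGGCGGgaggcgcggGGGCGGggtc

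Both windows are rich in G and C. The FGFR3 window had 86.8% G and C, 40 CpG dinucleotides and 8 GC boxes, and the NSD2 window had 86.0%, 50 and 6. Across 35116 promoters of the same length the median was 58.0% G and C and 11 CpG, and 42.6% held at least 1 GC box.

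The windows of MAF (chr16:79600738-79600987), ITGB7 (chr12:53207252-53207501) and CCR1 (chr3:46208314-46208563), all given 5′ to 3′ on the minus strand, are shown because MAF stands in the list beside its described targets. Both strands were searched for the core of the MAF recognition element, TGCTGAC, for the AP-1 site TGACTCA, for the cyclic AMP response element TGACGTCA and for GC boxes, and capitals mark matches.

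MAF: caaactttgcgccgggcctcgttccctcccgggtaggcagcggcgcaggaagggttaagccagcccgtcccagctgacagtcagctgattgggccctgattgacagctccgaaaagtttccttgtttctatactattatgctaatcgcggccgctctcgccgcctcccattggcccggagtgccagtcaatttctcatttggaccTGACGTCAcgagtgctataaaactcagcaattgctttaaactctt
ITGB7: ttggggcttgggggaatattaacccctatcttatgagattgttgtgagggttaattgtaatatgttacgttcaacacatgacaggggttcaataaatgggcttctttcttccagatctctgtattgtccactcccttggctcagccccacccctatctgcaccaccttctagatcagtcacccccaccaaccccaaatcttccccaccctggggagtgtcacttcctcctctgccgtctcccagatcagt
CCR1: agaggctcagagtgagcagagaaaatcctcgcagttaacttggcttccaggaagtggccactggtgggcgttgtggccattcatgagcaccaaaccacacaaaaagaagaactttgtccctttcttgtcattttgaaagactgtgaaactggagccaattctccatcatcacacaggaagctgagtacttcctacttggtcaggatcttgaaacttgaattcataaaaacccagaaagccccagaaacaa

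The MAF window held 1 cyclic AMP response element, a motif found in 1.65% of all promoters. The ITGB7 and CCR1 windows held none of the motifs searched. CCND3 had more than 1 promoter entry, and its windows, all on the minus strand, were searched but are not printed. The window at chr6:42048689-42048938 held 5 GC boxes, at 74.4% G and C, and that at chr6:41941809-41942058 held 2. The window at chr6:41939206-41939455 held 1 core of the MAF recognition element. The core of the MAF recognition element occurred in 3.43% of all promoters and the AP-1 site in 4.2%. A match in letters is a description only, and its absence says nothing about a factor beyond these windows.

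Library totals ran between 16337492 and 27076242 reads. All 10 plasma cell markers were expressed, led by JCHAIN (mean 6702 RPKM), and their summed level was 6913 to 9231 RPKM in gFBXW7_gKMT2D, 8388 to 8882 RPKM in gFBXW7 and 7983 to 9140 RPKM in gLuc. Summed markers of T, NK, myeloid, stromal and endothelial cells stayed at or below 0.2003 RPKM in every library, those of mature B cells at or below 2.08 RPKM, and erythroid markers reached 67.8 RPKM through HBB, with HBA1 at 1 read in all libraries together. FBXW7 was at 46.0 to 61.1 CPM in gFBXW7_gKMT2D, 51.8 to 56.1 CPM in gFBXW7 and 49.8 to 52.3 CPM in gLuc. KMT2D was at 24.4 to 116.4 CPM in gFBXW7_gKMT2D, 47.3 to 65.2 CPM in gFBXW7 and 39.8 to 111.3 CPM in gLuc. For each targeted gene, both the highest and the lowest library were ones in which it was targeted, and whole-gene counts cannot reveal small edits. The highest FBXW7 value and the lowest KMT2D value were both in the third gFBXW7_gKMT2D library. The third gFBXW7_gKMT2D library stood apart, with a median absolute deviation from the mean profile of 0.416 on the log2 CPM scale against 0.0911 to 0.286 in the other 8, and with the highest share of MALAT1 reads, 0.475% against 0.0961% to 0.281%. Values of the members that it moves are given with and without it.

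On the RPKM scale, which is per length of gene, the 8 genes covered the range from among the most abundant transcripts of the cell to nearly none. ITGB7 was the highest at 699.5 ± 128.1 RPKM (mean ± SD over 9 libraries), rank 114 of all genes in the table, followed by FGFR3 at 359.0 ± 78.8 RPKM (rank 192) and CCND2 at 224.4 ± 40.7 RPKM (rank 292). NSD2 averaged 63.3 ± 15.8 RPKM and CCR1 38.4 ± 9.55 RPKM, above 91.8% and 86.7% of the tested genes. CCND3 averaged 12.2 ± 1.03 RPKM and MAF 11.1 ± 1.06 RPKM, above 67.4% and 65.5%. CCND1 was close to absent.

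In that order, the 9-library ranges of ITGB7 and FGFR3 overlapped, as did those of FGFR3 and CCND2, of NSD2 and CCR1, and of CCND3 and MAF. The ranges of CCND2 and NSD2, of CCR1 and CCND3, and of MAF and CCND1 were apart. Without the third gFBXW7_gKMT2D library the order was the same and all neighbours but CCND3 and MAF were apart, with ITGB7 at 741.2 ± 30.7 RPKM, FGFR3 at 380.8 ± 47.3 RPKM and NSD2 at 67.1 ± 11.4 RPKM (SD, n = 8). The place of MAF rests on the deposited gene length of 30828 bases, whereas the exons of GENCODE v29 cover 6976 bases; with that length MAF averaged 49.2 RPKM, and with the longest transcript, of 6384 bases, 53.8 RPKM, 4.42 and 4.83 times the deposited value. NSD2 likewise averaged 133.9 RPKM with its longest transcript of 8568 bases in place of the deposited 18127 bases. These recalculated values keep the deposited counts, so any reads counted outside the shorter lengths would make them too high. These lengths do not touch comparisons of a gene between libraries.

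**Figure D1:**
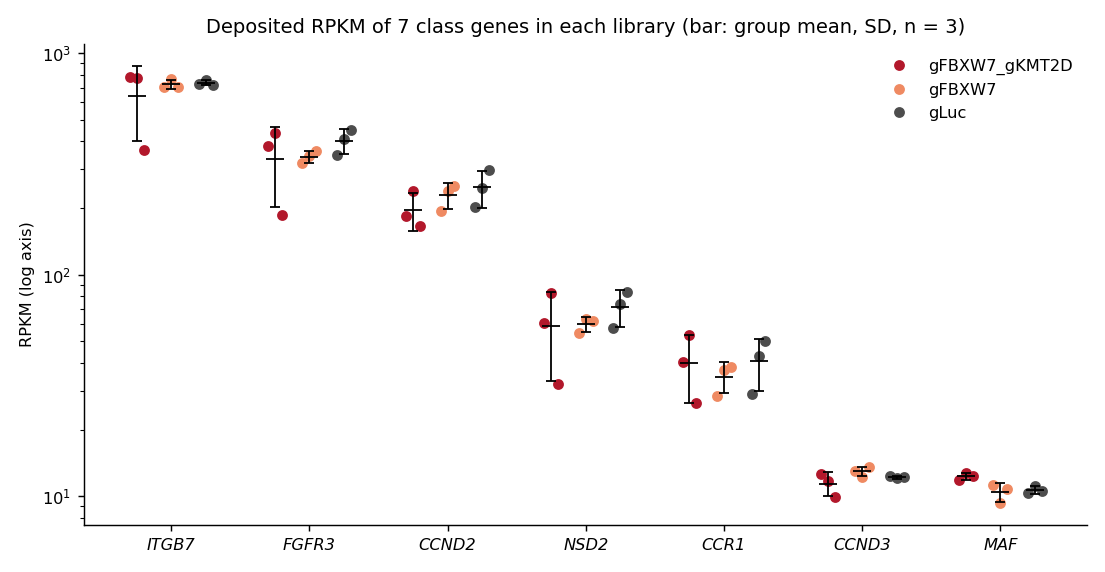
RPKM as deposited (log axis) of the 7 tested genes in each library, with points for gFBXW7_gKMT2D, gFBXW7 and gLuc libraries from left to right and bars for the group mean and SD (n = 3). The third gFBXW7_gKMT2D library is the low point of every gene shown but MAF, among them ITGB7 (366.7 RPKM), FGFR3 (185.1 RPKM), NSD2 (32.3 RPKM) and CCND3 (9.88 RPKM). MAF and CCND3 lie within narrow bands.

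The question put to the 3 groups was whether these class genes kept their levels when FBXW7, which recruits substrates to an SCF-type ubiquitin ligase, was targeted alone or with KMT2D, a histone H3 lysine 4 methyltransferase. No member passed the edgeR quasi-likelihood test in any comparison, at an adjusted p under 0.05 over 13262 genes. In gFBXW7_gKMT2D against gLuc, 0 of 7 tested members were called, with 0.0528% of all tested genes called; in gFBXW7 against gLuc, 0 of 7, with 0% of all genes called; and in gFBXW7_gKMT2D against gFBXW7, 0 of 7, with 0.0603% of all genes called. At an unadjusted p under 0.05 there were also 0 members in each, beside 3.61%, 1.58% and 4.22% of all genes in the same order, and the DESeq2 Wald test and limma-voom called 0 members. With so few calls over all genes, a count of 0 among 7 does not stand out from the background, and the intervals below say how large a change the data allow.

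FGFR3 was at 379.5, 436.8 and 185.1 RPKM in the gFBXW7_gKMT2D libraries, 318.2, 343.4 and 360.9 RPKM in gFBXW7, and 346.6, 410.9 and 449.8 RPKM in gLuc. The groups overlapped, and the lowest value, in the third gFBXW7_gKMT2D library, was below every other library. The log2 fold change was -0.23 in gFBXW7_gKMT2D against gLuc (SE 0.22, 95% interval -0.73 to 0.27, adjusted p = 0.902 in edgeR), an interval of 0.601 to 1.20 as a fold. When single libraries were left out, it lay between -0.39 (without the second gFBXW7_gKMT2D library) and 0.0004 (without the third). In gFBXW7 against gLuc it was -0.20 (SE 0.22, interval -0.70 to 0.30), and in gFBXW7_gKMT2D against gFBXW7 it was -0.04 (SE 0.22, interval -0.54 to 0.46), or 0.20 without that library. In bulk RNA, fewer cells expressing a gene and less RNA per cell cannot be told apart.

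NSD2 was at 60.3, 82.7 and 32.3 RPKM in gFBXW7_gKMT2D, 54.7, 63.1 and 61.6 RPKM in gFBXW7, and 57.2, 73.5 and 83.9 RPKM in gLuc. Its high and low libraries were largely those of FGFR3, with the third gFBXW7_gKMT2D library again the lowest and the third gLuc library the highest. The log2 fold change was -0.26 in gFBXW7_gKMT2D against gLuc (SE 0.24, 95% interval -0.79 to 0.28, edgeR adjusted p = 0.902), and between -0.50 (without the second gFBXW7_gKMT2D library) and -0.02 (without the third) when single libraries were left out. It was -0.21 in gFBXW7 against gLuc (SE 0.24) and -0.05 in gFBXW7_gKMT2D against gFBXW7 (SE 0.24), or 0.19 without that library.

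The ratio of FGFR3 to NSD2, both in RPKM, held within 5.28 to 6.29 over the 9 libraries, a coefficient of variation of 5.82%, whereas the single genes varied by 21.9% and 24.9%. These figures were 6.22% for the ratio and 12.4% and 17.0% for the genes once the third gFBXW7_gKMT2D library was left out. It was 6.29, 5.28 and 5.74 in gFBXW7_gKMT2D, 5.81, 5.44 and 5.86 in gFBXW7, and 6.06, 5.59 and 5.36 in gLuc. Pearson's r between the pair's log2 CPM over 9 libraries was 0.965 (Spearman 0.883), and 0.834 over the 7 libraries left when the 2 farthest from the median of FGFR3 were dropped. The points share libraries and depth, and NSD2 ranked 145 among genes by likeness to FGFR3.

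Neighbours on 4p16.3 were mostly lower. LETM1, a mitochondrial inner membrane protein encoded between the pair, averaged 11.2 RPKM, so that FGFR3 stood at 31.9 times and NSD2 at 5.63 times its level. On the far side of FGFR3, TACC3, a spindle protein, averaged 81.6 RPKM and SLBP, which binds histone messenger RNA, 101.7 RPKM, both below FGFR3 and, on the deposited lengths, above NSD2. Beyond NSD2, NELFA, a subunit of the negative elongation factor, averaged 15.0 RPKM. Of the 17 listed neighbours, all of which were tested, 0 were called in any comparison, and their median log2 fold change was -0.04 in gFBXW7_gKMT2D against gLuc beside 0.00 over all genes. Counts over genes do not show a rearrangement, and none was looked for.

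**Figure D2:**
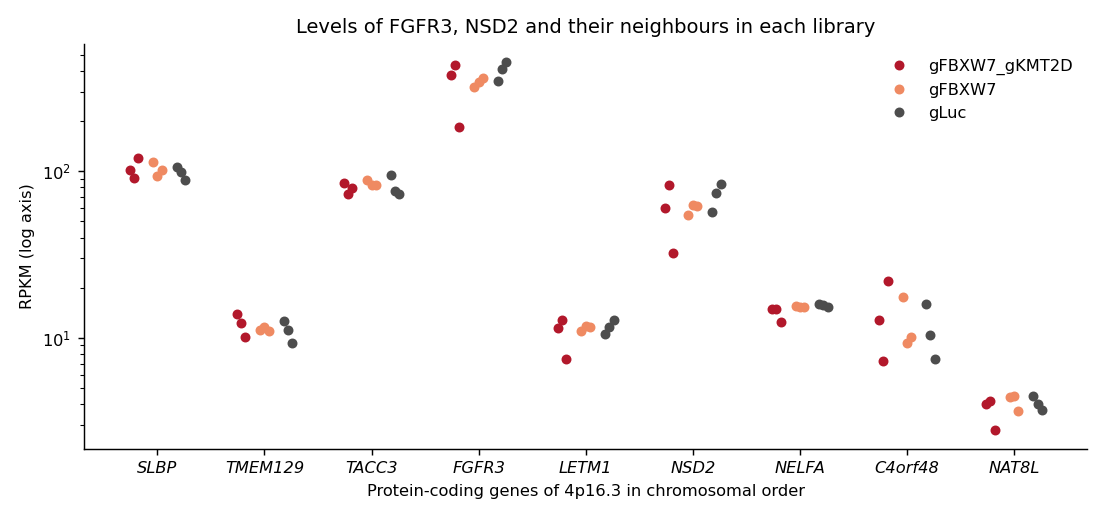
RPKM as deposited (log axis) of FGFR3, NSD2 and their nearest protein-coding neighbours in chromosomal order, 1 point for each library of gFBXW7_gKMT2D, gFBXW7 and gLuc from left to right. FGFR3 is the highest and lies above LETM1, which stays within 7.42 and 12.9 RPKM.

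MAF was at 11.8, 12.7 and 12.3 RPKM in gFBXW7_gKMT2D, 11.2, 9.31 and 10.8 RPKM in gFBXW7, and 10.3, 11.1 and 10.5 RPKM in gLuc. All gFBXW7_gKMT2D values were above all values of the other groups, so that MAF was the only 1 of the 7 tested members without overlap in CPM against gLuc and against gFBXW7, as were 6.44% and 9.05% of all tested genes. Between gFBXW7 and gLuc 0 of the 7 tested members were without overlap, beside 8.45% of all tested genes. The difference did not pass the test, with a log2 fold change of 0.29 in gFBXW7_gKMT2D against gLuc (SE 0.14, 95% interval -0.03 to 0.61, edgeR adjusted p = 0.902) and 0.27 in gFBXW7_gKMT2D against gFBXW7 (SE 0.14, interval -0.05 to 0.59, adjusted p = 1.0). Without the third gFBXW7_gKMT2D library these were 0.18 and 0.17. In gFBXW7 against gLuc it was 0.01 (SE 0.14).

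ITGB7 was at 780.2, 773.8 and 366.7 RPKM in gFBXW7_gKMT2D, 704.8, 761.2 and 703.1 RPKM in gFBXW7, and 729.6, 757.1 and 719.4 RPKM in gLuc. The third gFBXW7_gKMT2D library lay far below the other 8, which were close together. The log2 fold change was -0.16 in gFBXW7_gKMT2D against gLuc (SE 0.22, 95% interval -0.65 to 0.32), 0.06 without that library and -0.33 without the first gFBXW7_gKMT2D library. It was 0.01 in gFBXW7 against gLuc (SE 0.22). It was -0.18 in gFBXW7_gKMT2D against gFBXW7 (SE 0.22), or 0.05 without that library. ZNF740 overlaps ITGB7 on the opposite strand and averaged 7.08 RPKM; whether the counting used strand is not given in the sources used here, so reads of these genes cannot be told apart where they overlap.

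CCR1 was at 40.5, 53.5 and 26.3 RPKM in gFBXW7_gKMT2D, 28.3, 37.2 and 38.4 RPKM in gFBXW7, and 28.9, 42.9 and 50.1 RPKM in gLuc. The groups overlapped widely, and their lowest libraries lay between 26.3 and 28.9 RPKM. The log2 fold change was 0.03 in gFBXW7_gKMT2D against gLuc (SE 0.22, 95% interval -0.45 to 0.51, edgeR adjusted p = 0.977), -0.18 in gFBXW7 against gLuc (SE 0.22) and 0.21 in gFBXW7_gKMT2D against gFBXW7 (SE 0.22, interval -0.27 to 0.70). Without the third gFBXW7_gKMT2D library the first and last were 0.19 and 0.38. The neighbouring receptor genes CCR3 and CCR2 averaged 0.0755 and 0.0121 RPKM, so that CCR1 alone of these was expressed at 1 RPKM or more.

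CCND2 was the most abundant D cyclin transcript in every library. It was at 184.1, 239.5 and 166.0 RPKM in gFBXW7_gKMT2D, 194.8, 239.5 and 252.1 RPKM in gFBXW7, and 201.8, 245.3 and 296.5 RPKM in gLuc. The groups overlapped, with the lowest library in gFBXW7_gKMT2D and the highest in gLuc. The log2 fold change was -0.27 in gFBXW7_gKMT2D against gLuc (SE 0.17, 95% interval -0.65 to 0.11, edgeR adjusted p = 0.902), -0.07 in gFBXW7 against gLuc (SE 0.17) and -0.20 in gFBXW7_gKMT2D against gFBXW7 (SE 0.17). Without the third gFBXW7_gKMT2D library the first and last were -0.25 and -0.17. The first was -0.36 without the first gLuc library and -0.15 without the third gLuc library.

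CCND3 was at 12.6, 11.7 and 9.88 RPKM in gFBXW7_gKMT2D, 13.0, 12.3 and 13.6 RPKM in gFBXW7, and 12.3, 12.02 and 12.2 RPKM in gLuc. Its log2 fold changes were -0.03 in gFBXW7_gKMT2D against gLuc (SE 0.12, 95% interval -0.29 to 0.24), 0.13 in gFBXW7 against gLuc (SE 0.12) and -0.16 in gFBXW7_gKMT2D against gFBXW7 (SE 0.12). CCND2 took 93.6% to 96.1% of the summed RPKM of the 3 D cyclins in every library, and stood at 14.6 to 24.4 times CCND3.

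CCND1 had 1, 0 and 0 reads in gFBXW7_gKMT2D, 2, 1 and 1 reads in gFBXW7, and 0 reads in each gLuc library. No library reached the floor of 3 reads, which stands for 0.111 to 0.184 CPM, so no fold is given. The 5 reads of 171971414 correspond to 0.0291 CPM, with an exact Poisson 95% upper limit of 0.0679 CPM that covers counting error only. MYEOV, the neighbour of CCND1 that the same translocation can raise, averaged 0.00505 RPKM, and LTO1 on its other side 2.73 RPKM.

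**Figure D3:**
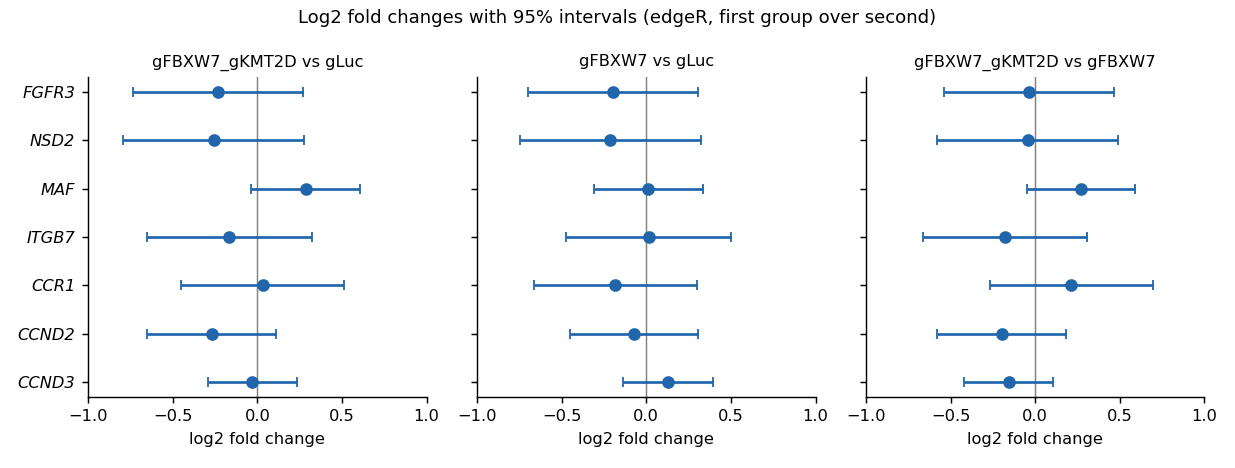
Log2 fold changes from edgeR, with 95% intervals, for 7 genes in gFBXW7_gKMT2D against gLuc, gFBXW7 against gLuc, and gFBXW7_gKMT2D against gFBXW7. Every interval includes 0, and the widest are those of NSD2, with -0.79 to 0.28 in gFBXW7_gKMT2D against gLuc.

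The members differed in how steady they were within groups. The pooled SD of log2 CPM was 0.09 for CCND3 (lower than all but 4.80% of tested genes), 0.14 for MAF and 0.17 for CCND2, against a median of 0.27 over tested genes. ITGB7 at 0.27, FGFR3 at 0.29, CCR1 at 0.30 and NSD2 at 0.32 lay at or above that median. Without the third gFBXW7_gKMT2D library the order turned over, with ITGB7 at 0.08 and FGFR3 at 0.09 the lowest, then CCND3 at 0.10, MAF at 0.11, NSD2 at 0.18, CCND2 at 0.19 and CCR1 at 0.27, against a median of 0.21 over tested genes. The third gFBXW7_gKMT2D library deviated from the mean of the other libraries of its group by -0.85 for FGFR3, -0.84 for NSD2, -0.79 for ITGB7 and -0.53 for CCR1 on the log2 scale, but by -0.05 for CCND2, -0.01 for CCND3 and 0.30 for MAF. Log2 CPM and log2 fold changes are scaled by TMM factors, 0.854 in that library and 1.0007 and 1.09 in the others of its group. RPKM is not so scaled, and on it that library was the lowest for CCND2 and CCND3 as well. Over all tested genes, 5% deviated by less than -1.14 and 5% by more than 1.15 in that library. The part of RNA quality or handling in that library's values was not tested.

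**Figure D4:**
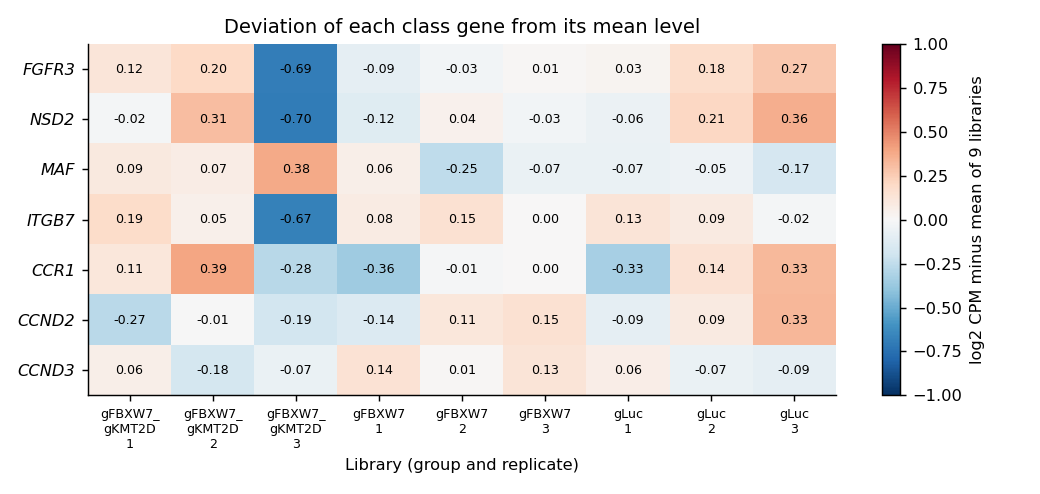
Log2 CPM of 7 genes minus each gene's mean over 9 libraries, with gFBXW7_gKMT2D, gFBXW7 and gLuc libraries from left to right. The third gFBXW7_gKMT2D library is the darkest column, from -0.70 for NSD2 to 0.38 for MAF.

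The genes whose log2 CPM was most like each member over the 9 libraries, among 9976 genes with a mean log2 CPM of at least 2, were found by Pearson's r as a description. TBC1D9B (0.991; 0.958 over 7 libraries) and HERC2P9 (0.988; 0.958) were most like FGFR3, which had 939 genes over 0.9, and CEP170P1 (0.998; 0.993) and JADE3 (0.997; 0.981) were most like NSD2, which had 1409. HERC2P9 and CEP170P1 are pseudogenes whose counts can share reads with their parent genes and are uncertain. CDAN1 (0.991; 0.761) and MOGS (0.988; 0.755) were most like ITGB7, and for both r dropped once the 2 libraries farthest from the median of ITGB7 were left out. KIF20A (0.985; 0.992) and KIAA0040 (0.980; 0.989) were most like CCR1, PDE4A (0.983; 0.969) and KCNN3 (0.963; 0.907) most like CCND2, SRSF10 (0.958; 0.909) and HSF2 (0.958; 0.792) most like MAF, and UTP6 (0.951; 0.899) and ZNF720 (0.949; 0.895) most like CCND3. MAF, CCND2 and CCND3 had 18, 15 and 16 genes over 0.9.

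Among the members, MAF was not positively correlated with its described targets over the 9 libraries. Its r was -0.727 with ITGB7, -0.313 with CCR1 and -0.716 with CCND2 (Spearman -0.117, -0.05 and -0.85), and without the third gFBXW7_gKMT2D library 0.178, -0.0284 and -0.739. FGFR3 and ITGB7 had an r of 0.840 with that library and -0.379 without it. CCR1 with FGFR3 kept its sign, at 0.673 and 0.857, but FGFR3 ranked only 2631 among genes by likeness to CCR1 over the 9 libraries.

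The wider pathways of the members were read from 11 gene lists with 174 entries, none of which had a called gene in any comparison. Of 19 FGF receptors, ligands and adaptors, 11 were tested. The adaptors SHC1 and GRB2 averaged 40.9 and 35.1 RPKM, the decoy receptor FGFRL1 8.10 RPKM and the phospholipase PLCG1 4.86 RPKM. The median log2 fold change of these 11 was -0.23 in gFBXW7_gKMT2D against gLuc and -0.23 in gFBXW7 against gLuc, beside 0.00 and 0.00 over all genes. The first of these was 0.01 without the third gFBXW7_gKMT2D library. Of the other receptors, chosen after their values were seen, FGFR1 had 6 reads and FGFR2 3 reads in all libraries together, and FGFR4 averaged 0.674 RPKM, so FGFR3 was the most abundant FGF receptor transcript.

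Of 17 genes that respond to MAP kinase signalling, which FGFR3 can activate, 15 were tested. MYC averaged 117.4 RPKM, and the dual-specificity phosphatases DUSP6, DUSP4 and DUSP5 19.7, 15.7 and 15.1 RPKM. DUSP5 averaged 16.7 ± 0.544 RPKM in gFBXW7_gKMT2D and 12.4 ± 1.45 RPKM in gLuc (SD, n = 3), with a log2 fold change of 0.51 (SE 0.14, edgeR adjusted p = 0.902). In gFBXW7, DUSP5 averaged 16.1 ± 0.273 RPKM, a log2 fold change of 0.41 against gLuc (SE 0.14, edgeR adjusted p = 0.956). EGR1, an immediate early gene chosen after its values were seen, averaged 0.937 ± 0.414 RPKM in gFBXW7_gKMT2D and 0.396 ± 0.144 RPKM in gLuc (SD, n = 3), which gave 1.31 as the log2 fold change (SE 0.33, edgeR adjusted p = 0.853). In gFBXW7, EGR1 averaged 0.664 ± 0.131 RPKM, a log2 fold change of 0.80 against gLuc (SE 0.34, edgeR adjusted p = 0.956). The median of the 15 was 0.10 in gFBXW7_gKMT2D against gLuc, -0.10 in gFBXW7 against gLuc and 0.12 in gFBXW7_gKMT2D against gFBXW7.

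All 16 genes listed under histone H3 lysine 36 methylation, the mark NSD2 writes, were tested. A place on this list, as for SETD3, does not establish a role in the mark. The most abundant were PSIP1, a reader of the mark, at 49.3 RPKM, ZMYND11, another reader, at 21.6 RPKM, and the demethylase KDM2A at 20.7 RPKM, followed by SETD3 at 12.3 RPKM. The related writers NSD1, NSD3 and SETD2, chosen after their values were seen, averaged 2.61, 7.43 and 5.21 RPKM, below NSD2. The median log2 fold change of the 16 was -0.12 in gFBXW7_gKMT2D against gLuc, -0.13 in gFBXW7 against gLuc and 0.01 in gFBXW7_gKMT2D against gFBXW7, beside 0.00, 0.00 and 0.02 over all genes. Below 0 were 14, 12 and 8 of the 16, beside 49.97%, 50.7% and 45.4% of all tested genes, and the first and second comparison share the gLuc libraries. The first median was -0.03 without the third gFBXW7_gKMT2D library.

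Of 21 partners and inhibitors of D cyclins, 20 were tested. CDK4, a kinase that D cyclins activate, averaged 125.6 RPKM, and the inhibitor genes CDKN2A and CDKN1B 89.8 and 62.4 RPKM, with the transcription factor E2F2 at 39.0 RPKM. CDK6, RB1 and CDKN2C, chosen after their values were seen, were at 24.7 RPKM, 13.5 RPKM and 1 read in all libraries together. The inhibitor gene CDKN1A, also so chosen, averaged 1.03 ± 0.368 RPKM in gFBXW7_gKMT2D and 0.516 ± 0.0421 RPKM in gLuc (SD, n = 3), with a log2 fold change of 1.05 (SE 0.25, edgeR adjusted p = 0.774). In gFBXW7, CDKN1A averaged 0.790 ± 0.100 RPKM, a log2 fold change of 0.65 against gLuc (SE 0.26, edgeR adjusted p = 0.956). The median of the 20 was -0.01 in gFBXW7_gKMT2D against gLuc, close to the 0.00 of all genes.

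Of 15 relatives and partners of MAF, 14 were tested, led by NFE2L1 at 60.1 RPKM, the deubiquitinase USP5 at 56.5 RPKM, the small MAF protein MAFG at 34.6 RPKM and NFE2L2 at 32.4 RPKM. MAFA, chosen after its values were seen, had 7 reads in all libraries together. Of 7 further genes described in MAF myelomas 4 were tested, DEPTOR at 13.1 RPKM, ARID5A at 11.9 RPKM, NUAK1 at 7.57 RPKM and TLR4 at 0.580 RPKM, while CX3CR1 and RND3, chosen after their values were seen, had 2 reads each. ARID5A averaged 9.99 ± 1.76 RPKM in gFBXW7_gKMT2D and 13.0 ± 0.232 RPKM in gLuc (SD, n = 3), with a log2 fold change of -0.32 (SE 0.12, edgeR adjusted p = 0.902), or -0.27 without the third gFBXW7_gKMT2D library.

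Of 16 adhesion and chemokine system genes listed around ITGB7 and CCR1, 7 were tested. The list is wider than partners: of its integrin chains, only ITGA4 and ITGAE are the alpha-4 and alpha-E that pair with beta-7. CXCR4, the bone marrow homing receptor, averaged 62.9 RPKM, the integrin chains ITGAL, ITGB1 and ITGA4 47.3, 28.4 and 24.3 RPKM, and, chosen after their values were seen, ITGAE 2.20 RPKM and the CCR1 ligands CCL3 and CCL5 8.69 and 5.14 RPKM. The counter-receptor genes CDH1 and MADCAM1, so chosen too, had 2 reads and 1 read. A mixed list of 11 myeloma class and B-lineage markers had 3 tested genes. They were the plasma cell factors IRF4 at 152.9 RPKM and PRDM1 at 27.8 RPKM, which mark no single class, and DSG2, a desmosomal cadherin, at 2.75 RPKM. Of the rest, named after their values were seen, DKK1 had 55 reads, MS4A1 17, PAX5 11 and FRZB 0.

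Genes beside the other members were at unlike levels. WWOX and DYNLRB2, on either side of MAF, averaged 1.07 and 0.108 RPKM, TIGAR beside CCND2 2.48 RPKM, and BYSL and TAF8 beside CCND3 19.8 and 2.21 RPKM. Of 15 listed neighbours of MAF 12 were tested and 0 called, and of 20 neighbours of the D cyclins 13 were tested and 0 called. Across the 7 tested members the median log2 fold change was -0.16 in gFBXW7_gKMT2D against gLuc, -0.07 in gFBXW7 against gLuc and -0.05 in gFBXW7_gKMT2D against gFBXW7, beside 0.00, 0.00 and 0.02 over all tested genes. The medians of the members were 0.0004, -0.08 and 0.17 without the third gFBXW7_gKMT2D library. The first and second comparison share the gLuc libraries, and the first and the last the gFBXW7_gKMT2D libraries.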

How the data were processed

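The tools named in the submitters' processing notes are STAR, Trimmomatic, DESeq2 and featureCounts, with GRCh38 as the build; versions, annotation and strand setting are not given in the sources used here. Per the file headers, each gene of the deposited table has a count of reads and an RPKM in every library. The authors' RPKM, recomputed from count, gene length and library total, differed by at most 8.5e-07 in relative terms. Of 38478 gene rows, 12580 held no read; an unnamed row of library totals was left out.

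The counts were fitted with edgeR 4.0.16 under R 4.3.3 (filterByExpr, 13262 genes; TMM; quasi-likelihood fit of all 9 libraries with group as the only term; glmQLFTest; Benjamini-Hochberg over all tested genes; threshold 0.05). SEs were computed as the log2 fold change over the root of F, and intervals from the t distribution. Log2 CPM used the TMM factors and a prior count of 2, and log2 RPKM a pseudocount of 1. CCND1 did not pass the filter. The pipeline was tested on simulated data. Alternatives used DESeq2 1.42.0, limma 3.58.1 and sva 3.50.0, other scalings and filters, the 6 compared libraries alone, the replicate block and each library left out; RPKM with GENCODE v29 lengths, and spreads, levels and list medians without the third gFBXW7_gKMT2D library, were added later, with the data in view. The members, the gene lists and the rule for naming genes were chosen with earlier results of these data known. The rule named the members, up to 4 tested genes of highest mean RPKM in each list, neighbours next to a member, and the 2 genes most like each member; genes outside it are said to be so. Figures were made with Python 3.11.15 and matplotlib 3.10.9.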

Additional observations from a re-analysis of the deposited data

How the results depend on the processing

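The count of members called was 0 in each comparison under every alternative run, and the lowest adjusted p of a member was 0.16 (MAF in gFBXW7_gKMT2D against gFBXW7, with 1 surrogate variable). Over all genes, the main counts were 7 in gFBXW7_gKMT2D against gLuc, 0 in gFBXW7 against gLuc and 8 in gFBXW7_gKMT2D against gFBXW7. In the first and the last of these they were 21 and 33 with no filter, 24 and 32 with the DESeq2 Wald test (1 in the second), 4 and 3 with limma on log2 RPKM plus 1, 2 and 0 with the 6 compared libraries alone and 55 and 124 with 1 surrogate variable; upper quartile scaling gave 5 in the last. Leaving out single libraries gave 2 to 7, 0 and 0 to 4; without the third gFBXW7_gKMT2D library the last count was 3. The correlation of deviations between same-numbered libraries ranged from -0.59 to 0.45 and was not over 0.1 for every pair in any comparison, so the numbers were not read as pairs; with the replicate block the first and the last counts were 2 and 2, and the members called stayed at 0.

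Of 399 alternative log2 fold changes of members, 377 kept their sign and 22 turned it, all near 0 or with 1 library left out, and none passed the threshold. With limma on log2 RPKM plus 1, CCR1 was at -0.040 in gFBXW7_gKMT2D against gLuc, and MAF and ITGB7 at -0.028 and -0.025 in gFBXW7 against gLuc. With 1 surrogate variable, MAF, CCR1 and CCND2 were at -0.055, 0.010 and 0.0022 in gFBXW7 against gLuc. With single libraries left out, ranges that turned sign were, in gFBXW7_gKMT2D against gLuc, -0.39 to 0.00040 for FGFR3, -0.33 to 0.058 for ITGB7, -0.14 to 0.19 for CCR1 and -0.091 to 0.026 for CCND3; in gFBXW7 against gLuc, -0.064 to 0.077 for MAF, -0.037 to 0.051 for ITGB7 and -0.17 to 0.045 for CCND2; and in gFBXW7_gKMT2D against gFBXW7, -0.19 to 0.20 for FGFR3, -0.29 to 0.19 for NSD2 and -0.35 to 0.049 for ITGB7. Ranges that kept their sign in gFBXW7_gKMT2D against gLuc were -0.50 to -0.023 for NSD2, 0.18 to 0.34 for MAF and -0.36 to -0.15 for CCND2. The within-group SD of log2 CPM, with libraries left out after the data had been seen, ranged over 0.088 to 0.32 for FGFR3, 0.18 to 0.35 for NSD2 and 0.081 to 0.30 for ITGB7, the lowest each without the third gFBXW7_gKMT2D library. With exon union lengths, mean RPKM was 49.2 for MAF, 473.2 for ITGB7 and 6.63 for CCND3; with longest transcripts it was 53.8 for MAF, 133.9 for NSD2 and 16.1 for CCND3. These RPKM values keep the deposited counts, so reads counted outside a shorter length would make them too high. The cause of the other shifts was not tested.

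With 3 libraries a group, the interval of NSD2 runs over folds of 0.577 to 1.21 in gFBXW7_gKMT2D against gLuc. It is not a detection limit: larger fitted changes, such as a log2 fold change of 1.31 for EGR1, did not pass the threshold either. Of the members, CCND1 alone had too few reads to be tested.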
